A study of Homo sapiens with 6 samples.

Results

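Kinesins are motor proteins that walk along microtubules or take them apart. The genes described here are the protein-coding members of the kinesin superfamily named KIF with a number, KIFC1 to KIFC3, the kinesin light chains KLC1, KLC2 and KLC4, and the binding proteins KIFBP and KIFAP3. They were taken from the deposited table by symbol, with a mean of at least 10 normalised counts over its 6 columns. That rule found 36 genes of the 14456 in the table. It names 47 symbols of genes that are protein-coding in GENCODE 29, and the other 11 (KIF17, KIF19, KIF21B, KIF25, KIF26A, KIF26B, KIF2B, KIF4B, KIF5A, KIF7 and KIFC3) were not analysed here. By textbook role, 12 of the 36 were placed among the mitotic kinesins, 13 among the transport kinesins, 5 among the light chains and binding proteins, and 6 in a class of ciliary and other kinesins. The RNA came from C4-2, a castration-resistant human prostate cancer line derived from LNCaP, grown in RPMI medium with fetal bovine serum. The treated group (3 libraries) received 100 nM IPI-9119, an irreversible inhibitor of fatty acid synthase (FASN), the enzyme that makes palmitate, over 6 days. The control group (3 libraries) is labelled DMSO 0.1%, and no label says whether the treated libraries also carried DMSO. Both groups are 1 cell line and 1 time, and no label says that replicates came from separate cultures. The p-values thus reflect only how these libraries vary, and that variation may be technical.

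Mitotic kinesins are made late in the cell cycle and build the spindle, move and hold chromosomes, and close the midzone at cytokinesis. Transport kinesins carry vesicles, organelles, RNA and protein complexes toward the plus ends of microtubules, often through light chains and cargo adaptors. Many promoters of late cell cycle genes carry a cell cycle genes homology region (CHR), which the DREAM and MuvB complexes bind, and a CCAAT box, which NF-Y binds.

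The promoters of the 36 genes were searched for these motifs in the RefSeq windows on GRCh38.p14, which run from 250 bases before a transcription start to 50 after it. By symbol, 31 of the 36 genes were matched to at least 1 promoter, and KIF27, KLC4, KLC2, KIFC2 and KIF13B were not matched. The CHR was searched as TTTGAA and also in the form TTCGAA, and the other motif as CCAAT, each of them on both strands. TTCGAA reads the same on both strands, and no CHR match shared a base with a CCAAT match in these genes. A CHR match was present in 10 of the 12 mitotic genes and in 2 of the 19 other kinesin genes (KIF24 and KIF5B). Over the 10676 tested genes with a promoter the share was 15%, and over all 27305 genes of the promoter table it was 19.5%. CCAAT was present in 10 of the 12 mitotic genes, in 8 of the 19 others, in 43.3% of the tested genes and in 39.7% of all genes. Both motifs were present in 9 of the 12 mitotic genes, in 2 of the 19 others, in 6.45% of the tested genes and in 7.85% of all genes. In 6 of the 10 mitotic genes with a CHR match (KIF4A, KIF23, KIF18A, KIF11, KIF15 and KIF22) it lay before the start, and in KIFC1, KIF14, KIF20B and KIF18B at or after it. A match is a description of the letters and not a site.

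The 100 bases before the start are shown for those 6 genes, for KIF20A, the kinesin with the largest rise, which has CCAAT but no CHR match, and for KIF1A, the kinesin with the largest fall before any correction for length, which has neither in the bases shown. Capitals mark the CHR letters (read as TTCAAA where the match is on the other strand) and the CCAAT box (read as ATTGG where the match is there). They are from RefSeq, GRCh38.p14, 5′ to 3′ on the gene's strand, which is minus for KIF18A and KIF1A and plus for the others. Positions are chrX:70290004-70290103 for KIF4A, chr15:69414249-69414348 for KIF23, chr11:28108157-28108256 for KIF18A, chr10:92593030-92593129 for KIF11, chr3:44761694-44761793 for KIF15, chr16:29790651-29790750 for KIF22 (1 of 2 starts), chr5:138179012-138179111 for KIF20A and chr2:240821404-240821503 for KIF1A (1 of 3 starts).
KIF4A: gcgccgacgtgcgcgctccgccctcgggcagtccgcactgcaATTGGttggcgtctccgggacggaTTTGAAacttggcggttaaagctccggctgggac
KIF23: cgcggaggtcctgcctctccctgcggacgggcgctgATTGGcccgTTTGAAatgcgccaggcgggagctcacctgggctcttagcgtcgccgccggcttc
KIF18A: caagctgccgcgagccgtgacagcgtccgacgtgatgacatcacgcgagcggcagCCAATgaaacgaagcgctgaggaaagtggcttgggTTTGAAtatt
KIF11: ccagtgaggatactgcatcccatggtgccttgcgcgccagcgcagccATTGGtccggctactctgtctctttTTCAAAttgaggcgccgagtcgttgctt
KIF15: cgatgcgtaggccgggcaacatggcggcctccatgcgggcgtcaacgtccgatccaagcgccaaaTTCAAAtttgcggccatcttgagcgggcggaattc
KIF22: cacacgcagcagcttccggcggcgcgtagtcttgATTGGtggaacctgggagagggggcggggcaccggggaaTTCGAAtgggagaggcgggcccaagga
KIF20A: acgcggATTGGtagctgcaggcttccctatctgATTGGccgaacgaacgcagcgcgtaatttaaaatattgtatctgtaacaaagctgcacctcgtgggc
KIF1A: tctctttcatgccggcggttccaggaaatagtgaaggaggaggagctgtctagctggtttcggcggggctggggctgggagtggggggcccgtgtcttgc

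Values are gene counts divided by a size factor of the library, called normalised counts. Summed over the genes of the deposited table, the 6 libraries held 19090749 to 23448035 reads. The mean of these totals in the IPI-9119 libraries was 0.861 of that in the DMSO libraries. The 10 luminal prostate markers were all measured (8 fell, 1 rose and 1 did not pass), beside 31.4% lower and 31.3% higher over all genes. Their summed level was 258249 to 268892 normalised counts in DMSO and 151741 to 157314 in IPI-9119. Of 11 markers of leukocytes, endothelium, fibroblasts and basal cells, 3 were measured (COL1A1, COL1A2 and VWF), with a sum of 123 to 168 in every library, and none passed the test. After the correction for length and GC content described below, COL1A1 (1.49, adjusted p = 0.000425) and VWF (0.89, adjusted p = 0.00115) were called higher. PTPRC, CD68, CD3E, PECAM1, DCN, TP63, KRT5 and KRT14 were not in the tested table. Genes were called at an adjusted p under 0.05 (limma on log2(value + 1), Benjamini-Hochberg over the 14437 genes tested). Fold changes below are IPI-9119 against DMSO on that log2 scale, where the change of a low gene comes out too small. Since the RNA is from whole cultures, a different number of cells in a cell cycle phase and a different amount of RNA per cell cannot be told apart, and the labels give no batch, so batch and treatment cannot be told apart either.

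Mitotic and transport kinesins went opposite ways under IPI-9119. Of the 12 mitotic kinesins, 11 rose, none fell and KIF22 did not pass the test, with a median log2 fold change of 1.96. Of the 13 transport kinesins, 11 fell, KIF3C rose and KIF3B did not pass, with a median of -0.58. All 5 light chains and binding proteins fell, with a median of -0.76. After a correction for exonic length and GC content, 7 transport kinesins were still called lower. Of the light chains and binding proteins 3 were then lower and KLC1 was higher (0.29, adjusted p = 0.0123), with a median of -0.26. Among the 6 ciliary and other kinesins, KIF24 and KIF9 rose and 4 did not pass, with a median of 0.032. These counts stand beside a wide response, since 62.8% of all genes tested were called, 31.3% higher and 31.4% lower, with a median log2 fold change of 0.0017. A called rise of at least 2-fold was found for 9 of the 12 mitotic kinesins and 7.92% of all genes, and a called fall of that size for 4 of the 13 transport kinesins and 9.27% of all genes. The 3 IPI-9119 libraries lay wholly above the 3 DMSO libraries for 11 mitotic kinesins (34% of all genes), and wholly below them for 10 transport kinesins (33.9% of all genes, and 67.9% in either direction). The summed level of the mitotic class was 1662 ± 42.9 normalised counts in DMSO and 4314 ± 198 in IPI-9119 (SD, n = 3 each). That of the transport class was 19278 ± 1353 in DMSO and 13705 ± 1595 in IPI-9119.

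**Figure D1:**
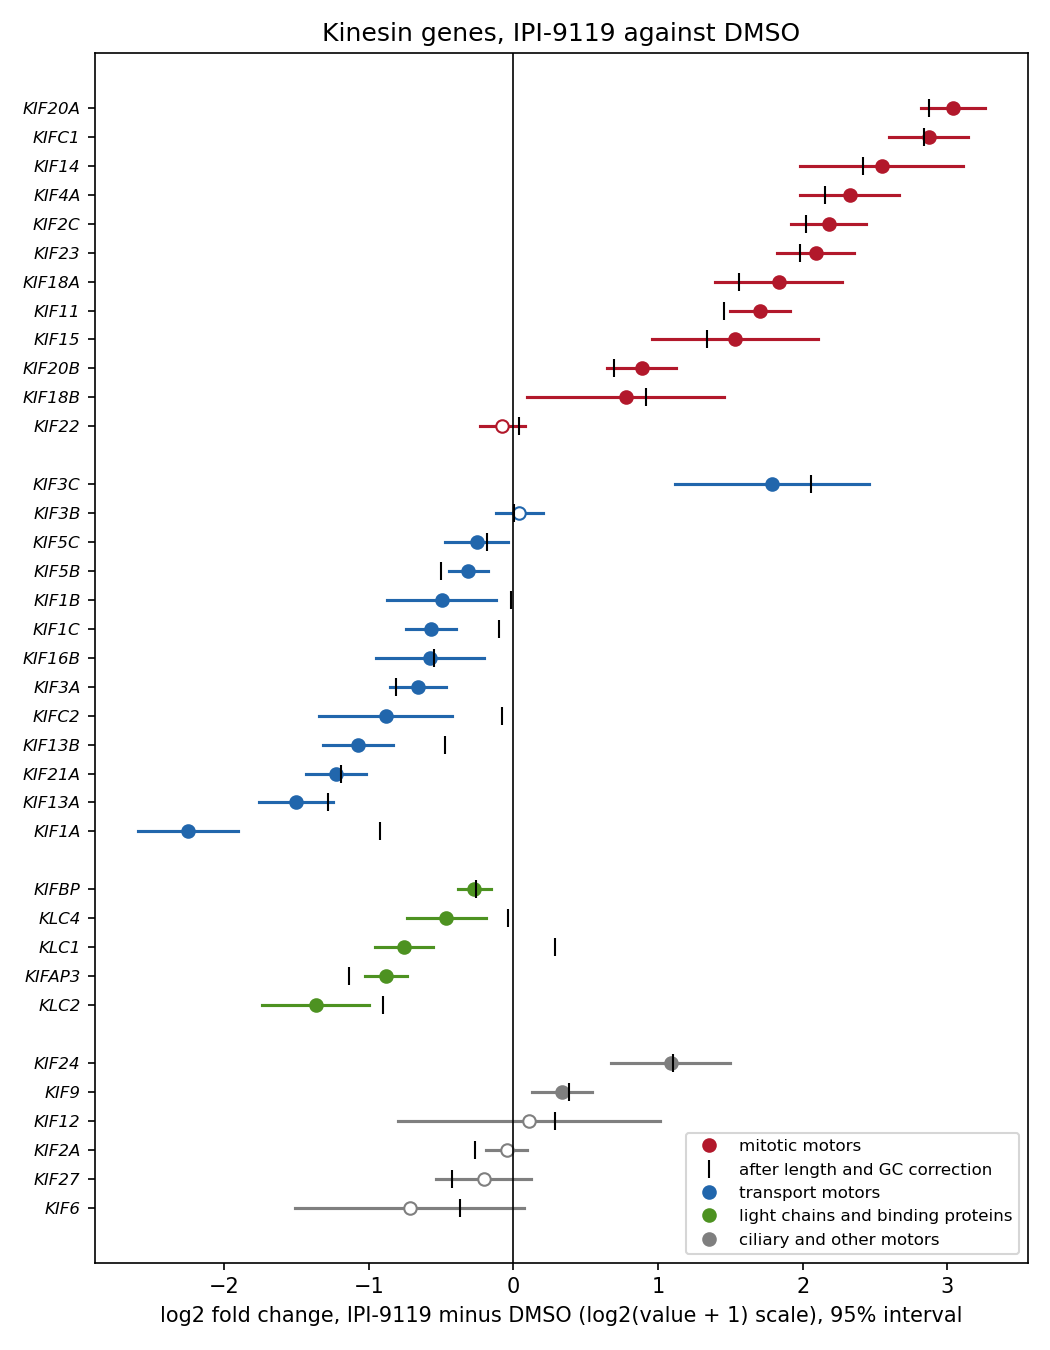
Log2 fold change (IPI-9119 against DMSO, on log2(value + 1)) of the 36 kinesin genes by class, with 95% confidence intervals, filled points past an adjusted p of 0.05, open points not past it, and a black tick for the value after correction for exonic length and GC content. The 11 called mitotic kinesins lie between 0.78 and 3.04, and the transport kinesins between -2.25 (KIF1A) and 1.79 (KIF3C).

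Among the motors that build the bipolar spindle, all 3 measured rose. KIF11, the tetrameric motor that pushes spindle poles apart (ENSG00000138160, chr10:92593286-92655395 on GRCh38, plus strand), gave 173, 192 and 167 normalised counts with DMSO and 586, 617 and 541 with IPI-9119. The groups did not overlap, and KIF11 was 3.28-fold higher by the means (log2 fold change 1.71, SE 0.097, adjusted p = 2.7e-09). KIF15, a motor that can also drive pole separation, gave 18.8, 16 and 24.8 normalised counts with DMSO and 49.5, 50.2 and 80.3 with IPI-9119. It was low in all libraries and higher in each treated one (log2 fold change 1.53, SE 0.27, adjusted p = 0.000185). KIFC1, a minus-end motor that bundles spindle microtubules and clusters extra centrosomes (ENSG00000237649, chr6:33391536-33409924, plus strand), gave 64.4, 53.8 and 59.7 normalised counts with DMSO and 478, 393 and 451 with IPI-9119. Every treated library was far above every control library, and the rise was 7.43-fold by the means (log2 fold change 2.87, SE 0.13, adjusted p = 2.6e-10).

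Of the 5 motors of chromosome arms and microtubule ends, 4 rose. KIF4A, a chromokinesin that also shortens the midzone, gave 76, 50.01 and 76.2 normalised counts with DMSO and 326, 342 and 339.8 with IPI-9119. All treated libraries were higher, by 4.99-fold on the means (log2 fold change 2.33, SE 0.16, adjusted p = 2.0e-08). KIF22, the other chromokinesin, which pushes chromosomes away from the poles, gave 806, 894 and 812 normalised counts with DMSO and 781, 750.4 and 852 with IPI-9119. Its groups overlapped and its log2 fold change was -0.076 (95% interval -0.23 to 0.081, adjusted p = 0.381), and it was the only mitotic kinesin that did not pass. Per kilobase of exonic length it was also the mitotic kinesin with the highest level in DMSO, at 194 normalised counts. KIF2C, a depolymerase that frees wrongly attached kinetochore microtubules, gave 112, 99.1 and 84.5 normalised counts with DMSO and 433, 459 and 449 with IPI-9119. The groups were far apart (log2 fold change 2.18, SE 0.12, adjusted p = 2.1e-09). KIF18A, which limits the length of kinetochore fibres, gave 34.9, 35.9 and 26.6 normalised counts with DMSO and 95.9, 116 and 145 with IPI-9119. It rose by 1.83 on the log2 scale (SE 0.21, adjusted p = 2.9e-06) with no overlap. KIF18B, which acts on astral microtubules, gave 20.6, 11.3 and 11.9 normalised counts with DMSO and 24.2, 25.1 and 25.3 with IPI-9119, from 48 and 69 reads in all. The treated libraries lay just above the highest control, and the call was the weakest of the class (log2 fold change 0.78, SE 0.32, adjusted p = 0.0455). The call of KIF18B was lost in edgeR's count test (adjusted p = 0.0593), in DESeq2 (0.136), with quantile scaling (0.0809), and without any 1 library other than DMSO replicate 1 (0.0735 to 0.139).

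The 4 motors of the midzone and cytokinesis all rose, KIF20A the most of any kinesin. KIF20A (ENSG00000112984, chr5:138178719-138187715, plus strand), which brings the chromosomal passenger complex to the midzone, gave 92.1, 85.9 and 83.6 normalised counts with DMSO and 670.5, 725 and 779.8 with IPI-9119. The treated libraries were 8.32-fold higher by the means (log2 fold change 3.04, SE 0.10, adjusted p = 1.7e-11). KIF23, the motor of centralspindlin, gave 70.6, 83 and 85.4 normalised counts with DMSO and 326, 336 and 363 with IPI-9119. Its groups were well apart (log2 fold change 2.09, SE 0.12, adjusted p = 4.4e-09). KIF14, which binds citron kinase at the midbody, gave 17, 18.9 and 31.2 normalised counts with DMSO and 93.8, 148 and 162 with IPI-9119. Its libraries spread widely within each group, but the groups did not overlap (log2 fold change 2.55, SE 0.26, adjusted p = 1.3e-06). KIF20B, a relative of KIF20A that acts late in cytokinesis, gave 161, 171 and 166 normalised counts with DMSO and 276, 309 and 342 with IPI-9119. It rose by 0.89 on the log2 scale (SE 0.11, adjusted p = 8.3e-06), the smallest rise of the class after KIF18B.

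**Figure D2:**
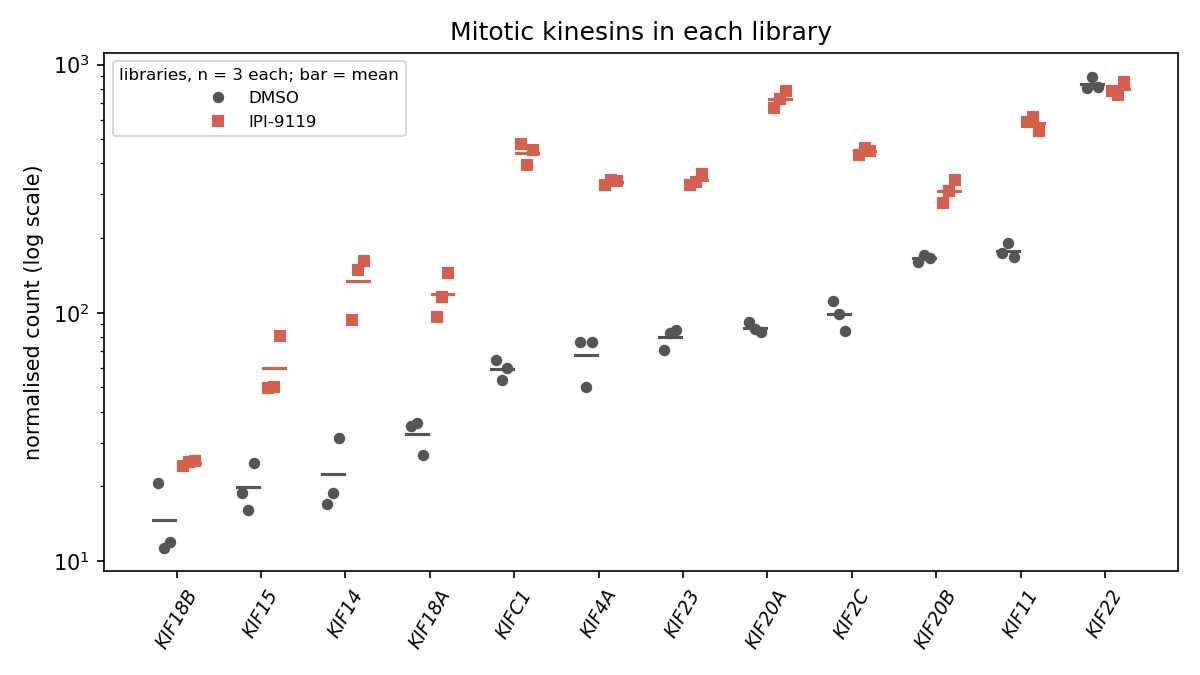
Normalised counts (log axis) of the 12 mitotic kinesins in each of the 3 DMSO and 3 IPI-9119 libraries, 1 point per library, with a line at the group mean. The IPI-9119 points lie above the DMSO points for 11 genes and overlap them for KIF22.

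Proteins that work with the mitotic kinesins mostly rose as well. Of 20 listed, 15 rose, 3 fell and 2 did not pass, with a median log2 fold change of 1.94, beside 31.3% higher and 31.4% lower over all genes. BIRC5, a subunit of the chromosomal passenger complex, went from 228 ± 16.8 to 2461 ± 219 normalised counts (SD, n = 3 each, log2 fold change 3.42, adjusted p = 9.0e-13). HMMR, a spindle protein, rose by 3.32 (adjusted p = 5.0e-13) and GTSE1, which restrains KIF2C, by 2.92 (adjusted p = 7.5e-10). Direct partners of 3 motors rose as well: TPX2, which binds KIF11, rose by 2.32, RACGAP1, which forms centralspindlin with KIF23, by 1.95, and PRC1, which recruits KIF4A, by 1.80. The 2 that did not pass were INCENP (0.27, adjusted p = 0.186) and CENPF (-0.44, adjusted p = 0.0562). After the correction for length and GC content INCENP was called higher (0.45, adjusted p = 0.0138). MAPRE1, which had risen by 0.19, was then not called (-0.053, adjusted p = 0.331). The 3 that fell were CENPE, MKI67 and CKAP5. CENPE, itself a kinesin of the kinetochore whose name lies outside the KIF symbols, gave 37.5, 54.7 and 25.7 normalised counts with DMSO and 17.9, 20.7 and 18.7 with IPI-9119. It fell by 0.94 on the log2 scale (adjusted p = 0.0127), and without DMSO replicate 2 the fall was not called (-0.68, adjusted p = 0.0899). MKI67, a coat of mitotic chromosomes and a marker of cycling cells, was at a log2 fold change of -1.32 (adjusted p = 0.00175) and CKAP5, a microtubule polymerase, at one of -0.75 (adjusted p = 3.9e-05). MKI67 was low, at 38.4, 86.8 and 39.5 normalised counts with DMSO and 20, 18.5 and 20.9 with IPI-9119. CENPE, MKI67 and CKAP5 are long (9444, 12807 and 8538 nt of exons, against a list median of 4357.5 nt). With the length and GC correction they were at -1.02, -0.94 and -0.71, all still called.

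Turning to transport, conventional kinesin (kinesin-1) was lower in each measured subunit. KIF5B, its ubiquitous heavy chain (ENSG00000170759, chr10:32009010-32056431, minus strand), gave 6953, 7479.6 and 6875 normalised counts with DMSO and 5132, 6178 and 5906 with IPI-9119. It was the most abundant kinesin per length of transcript in both groups, and the treated libraries were all lower (log2 fold change -0.31, SE 0.064, adjusted p = 0.000697). KIF5C, a heavy chain enriched in neurons, gave 617, 681 and 603 normalised counts with DMSO and 465, 514 and 626 with IPI-9119. IPI-9119 replicate 3 lay among the controls, and the fall was small (log2 fold change -0.25, adjusted p = 0.0416). It was not called with quantile scaling (adjusted p = 0.12) or in limma without trend and robust moderation (0.127). Nor was it called without any 1 library other than IPI-9119 replicate 3 (0.0612 to 0.147). The light chains bind cargo. KLC2 gave 517, 581 and 451 normalised counts with DMSO and 155, 193 and 261 with IPI-9119, with no overlap (log2 fold change -1.37, SE 0.17, adjusted p = 2.4e-05). KLC1 gave 433, 466 and 399.5 normalised counts with DMSO and 244, 264 and 259.6 with IPI-9119 (log2 fold change -0.76, SE 0.094, adjusted p = 7.9e-06). KLC4 gave 347, 315 and 338 normalised counts with DMSO and 202, 298 and 233 with IPI-9119 (log2 fold change -0.46, SE 0.13, adjusted p = 0.00588). In both of these the groups were apart, but the falls ended once length and GC content were corrected for: KLC4 came to -0.036 (adjusted p = 0.799) and KLC1 turned to 0.29 (adjusted p = 0.0123). XRCC3 on the opposite strand shares 29.9% of the exonic length of KLC1, and no source used here says whether the counting used strand.

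The heterotrimeric kinesin-2, which carries intraflagellar transport trains and other cargo, had 2 subunits that fell (KIF3A and KIFAP3), 1 that rose (KIF3C) and 1 that did not pass (KIF3B). Its motor subunit KIF3A gave 669, 722 and 714 normalised counts with DMSO and 413, 417 and 506 with IPI-9119, with every treated library lower (log2 fold change -0.66, SE 0.089, adjusted p = 1.7e-05). The other motor subunit, KIF3B, gave 1828, 2045 and 2003 normalised counts with DMSO and 1769, 2136 and 2160.0 with IPI-9119. Its groups overlapped (log2 fold change 0.041, 95% interval -0.12 to 0.20, adjusted p = 0.65). KIFAP3, the subunit that joins them to cargo, gave 1166, 1243 and 1265 normalised counts with DMSO and 619.9, 685 and 688 with IPI-9119. It fell in each treated library (log2 fold change -0.88, SE 0.068, adjusted p = 6.8e-08). KIF3C, which pairs with KIF3A in another form of the motor (ENSG00000084731, chr2:25926596-25982749, minus strand), gave 24.1, 47.2 and 25.7 normalised counts with DMSO and 68.5, 136 and 139 with IPI-9119. It was the 1 transport kinesin that rose (log2 fold change 1.79, SE 0.31, adjusted p = 0.000268), from a low level and with the controls all below the treated libraries. Without IPI-9119 replicate 1, KIF3B was called higher as well (log2 fold change 0.13, adjusted p = 0.0414).

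All 6 kinesin-3 motors of the transport class, which carry synaptic vesicle precursors, endosomes and other vesicles, fell. After a correction for length and GC content, 4 of the 6 were still called. KIF1A, known best from axons (ENSG00000130294, chr2:240713761-240821036, minus strand), gave 861, 1128 and 957 normalised counts with DMSO and 160.2, 208 and 255 with IPI-9119. It fell 4.72-fold by the means, with the groups far apart (log2 fold change -2.25, SE 0.16, adjusted p = 4.3e-07). That was the largest fall of any kinesin without the correction, but with it KIF1A was at -0.92, behind KIF13A (-1.28), KIF21A (-1.19) and KIFAP3 (-1.14). KIF13A, an endosome motor, gave 560.4, 777 and 593 normalised counts with DMSO and 206, 224 and 244 with IPI-9119, again with no overlap (log2 fold change -1.50, SE 0.12, adjusted p = 8.8e-08). Its relative KIF13B gave 460.3, 564 and 522 normalised counts with DMSO and 209, 268 and 256 with IPI-9119 (log2 fold change -1.08, SE 0.11, adjusted p = 1.4e-06). The remaining 3 fell by less than 2-fold. KIF1C, a Golgi and integrin vesicle motor, gave 2719, 3076 and 2798 normalised counts with DMSO and 1681, 2033 and 2093 with IPI-9119 (log2 fold change -0.57, adjusted p = 3.3e-05), a call that ended with the correction (-0.10, adjusted p = 0.101). KIF1B, a carrier of mitochondria and vesicles, gave 1678, 2073 and 1885 normalised counts with DMSO and 1013, 1542 and 1491 with IPI-9119 (log2 fold change -0.50, adjusted p = 0.0291). That call ended with the correction (-0.014, adjusted p = 0.886) and when DMSO replicate 2 was left out (-0.42, adjusted p = 0.097). It also ended in limma without trend and robust moderation (adjusted p = 0.0607). KIF16B, an early endosome motor, gave 104, 135 and 96.4 normalised counts with DMSO and 64.3, 76.4 and 81.4 with IPI-9119 (log2 fold change -0.58, adjusted p = 0.00959), and that call ended without DMSO replicate 2 (-0.44, adjusted p = 0.0613). In all 3 the treated libraries lay below the controls.

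The last transport motors and the binding protein fell too. KIF21A, a motor that slows microtubule growth at the cell cortex, gave 1616, 1902 and 1559 normalised counts with DMSO and 623, 789.7 and 762 with IPI-9119, with each treated library less than the lowest control (log2 fold change -1.22, SE 0.096, adjusted p = 1.9e-07). KIFC2, a minus-end motor described in neurons, gave 165, 182 and 138 normalised counts with DMSO and 59, 112 and 97.9 with IPI-9119 (log2 fold change -0.88, SE 0.21, adjusted p = 0.00266). That call ended with the correction for length and GC content (-0.077, adjusted p = 0.714). FOXH1 on the opposite strand shares 17.8% of the exonic length of KIFC2. KIFBP, which binds kinesin motor domains and keeps them off microtubules, gave 2010.2, 2056 and 2015 normalised counts with DMSO and 1762, 1648 and 1634 with IPI-9119. It was lower in every treated library by a small amount (log2 fold change -0.27, SE 0.053, adjusted p = 0.000457).

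**Figure D3:**
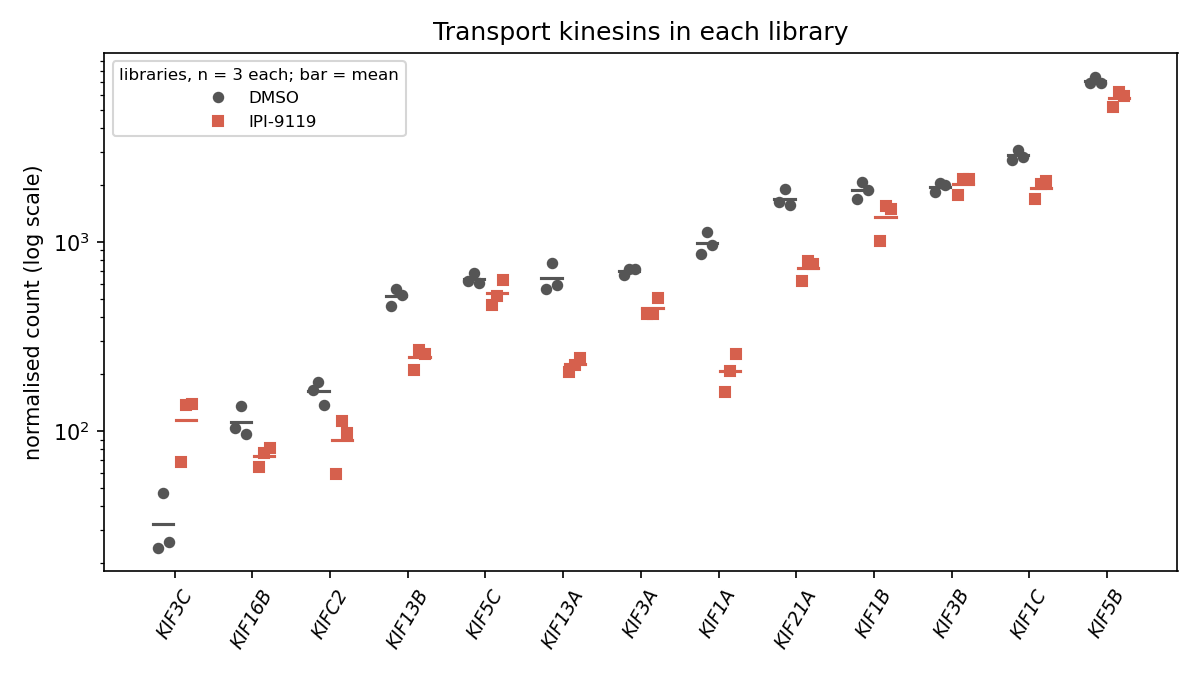
Normalised counts (log axis) of the 13 transport kinesins in each of the 3 DMSO and 3 IPI-9119 libraries, 1 point per library, with a line at the group mean. KIF3C is higher in IPI-9119, KIF3B and KIF5C overlap between the groups, and the other 10 lie lower in IPI-9119.

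DMSO replicate 2 was the highest control for all 13 transport kinesins, and IPI-9119 replicate 1 the lowest treated library for all 13. The summed transport level was 18253, 20811 and 18769 normalised counts with DMSO and 11863, 14634 and 14617 with IPI-9119. The mitotic kinesins had no such high control, since each DMSO library was highest for 4 of the 12 genes, but IPI-9119 replicate 1 was the lowest treated library for 9 of the 12. In a check added after the data were seen, without both of those libraries, 9 transport kinesins were called lower and 2 higher, with a median log2 fold change of -0.42. The mitotic class then had 10 called higher and a median of 2.10.

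In the ciliary and other class, 2 of the 6 genes were called (33.3%), both higher, beside 31.3% called higher and 62.8% called over all genes. KIF24, a centriolar depolymerase that holds back cilium formation, gave 50.1, 44.3 and 39.5 normalised counts with DMSO and 83.3, 118 and 89.1 with IPI-9119, with no overlap (log2 fold change 1.09, SE 0.19, adjusted p = 0.000197). KIF9, a motor of motile cilia, gave 287, 326 and 329 normalised counts with DMSO and 376, 433 and 379 with IPI-9119 (log2 fold change 0.33, SE 0.097, adjusted p = 0.00787). KIF9-AS1, an antisense gene, shares 14.9% of the exonic length of KIF9. KIF2A, a depolymerase with roles in and outside the spindle, gave 804, 867 and 806 normalised counts with DMSO and 764, 809 and 824 with IPI-9119 and the groups overlapped (log2 fold change -0.047, adjusted p = 0.56). KIF27, KIF12 and KIF6 also did not pass (log2 fold changes -0.21, 0.11 and -0.72). With the correction for length and GC content KIF2A (-0.27, adjusted p = 0.0019) and KIF27 (-0.43, adjusted p = 0.0224) were called lower. KIF6 was called lower without DMSO replicate 1 (-0.98, adjusted p = 0.0449) or without IPI-9119 replicate 1 (-0.92, adjusted p = 0.0487). KIF6 and KIF12 averaged under 30 normalised counts in each group.

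Per kilobase of exonic length, the order of the kinesins changed between the groups. KIF5B was first of the 36 in both, at 1209 normalised counts per kilobase in DMSO and 976 in IPI-9119. KIF20A moved from rank 23 (22 per kilobase) to rank 6 (183 per kilobase). KIFC1 moved from rank 25 to 9, KIF2C from 20 to 10 and KIF11 from 18 to 11. KIF1A went the other way, from rank 13 (58.8 per kilobase) to rank 31 (12.5 per kilobase). KIF22, which did not pass the test, stood at rank 6 in DMSO and 5 in IPI-9119.

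Exonic length moved with these differences. The mitotic kinesins had a median exonic length of 4662 nt (3345 to 7277) and the transport kinesins one of 8580.0 nt (4447 to 17720), against 4616 nt for all genes. Over all genes tested, the median log2 fold change was 0.13 for those under 2000 nt and -0.22 for those of 10000 nt or more, where 48.4% were called lower and 21.8% higher. Of the 7 kinesins of 10000 nt or more, 6 fell and none rose. Across the 36 kinesins the log2 fold change and the log2 length had a Pearson r of -0.56 and a Spearman rho of -0.56, against -0.14 and -0.17 across 14386 genes, all from the same 6 libraries. The 36 pool classes that differ in both length and direction. Within the 12 mitotic kinesins r was -0.19 and rho -0.29, and within the 13 transport kinesins they were -0.50 and -0.49. In each library, the slope of the log2 deviation from the mean on log2 length was 0.029, 0.076 and 0.054 in DMSO and -0.094, -0.037 and -0.027 in IPI-9119, so the libraries with the highest and the lowest transport sums also had the most extreme slopes.

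The lengths of both classes overlap between 4447 and 7277 nt. In that range all 8 mitotic kinesins rose (median log2 fold change 1.77), at a median length of 5072.5 nt, shorter than the 6103 nt of the transport kinesins there. Of the 5 transport kinesins in it, KIF3C rose, KIF5B, KIF3A and KIFC2 fell and KIF3B did not pass (median -0.31). Among all 4046 genes of that length, 31.5% rose and 35.9% fell. After a correction of each library for length and GC content, 11 mitotic kinesins were still called higher, with a median of 1.77, and 7 of the 13 transport kinesins lower, with a median of -0.47, beside 30.7% higher and 34.1% lower over all genes. The fall of KIF1A (16695 nt) went to -0.92 (adjusted p = 2.8e-07), and those of KIF1B, KIF1C, KIFC2 and KIF5C were no longer called (-0.014, -0.10, -0.077 and -0.18). Those of KIF21A (-1.19), KIF13A (-1.28), KIF3A (-0.81), KIF16B (-0.55), KIF5B (-0.50) and KIF13B (-0.47) were still called, as was that of KIFAP3 (-1.14).

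**Figure D4:**
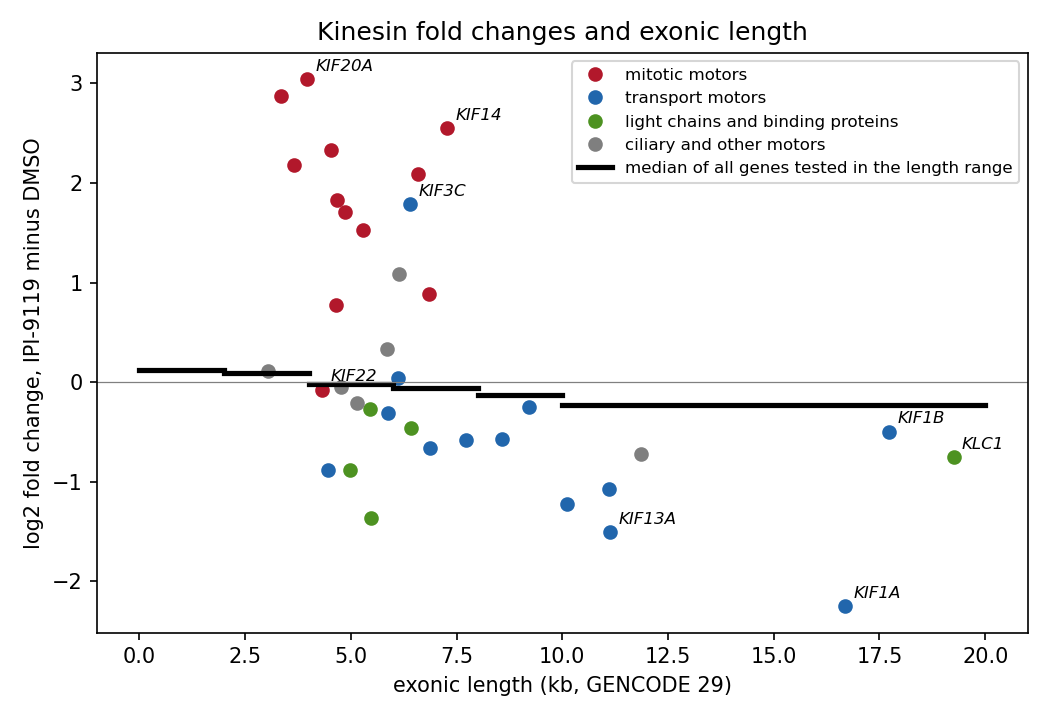
Log2 fold change (IPI-9119 against DMSO) against exonic length in kilobases for the 36 kinesins, 1 point per gene coloured by class, with black lines at the median of all genes tested in each length range. The 11 called mitotic kinesins lie above the lines of medians, 8 of them between 4447 and 7277 nt, the lengths shared with transport kinesins. In that range KIF5B, KIF3A and KIFC2 lie below the lines, and KIF3C and KIF3B above them. No kinesin of 10000 nt or more rose.

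Of 24 cargo adaptors and their regulators, 16 fell, 4 rose and 4 did not pass, with a median of -0.58, beside 31.4% lower and 31.3% higher over all genes. After the correction for length and GC content 11 were called lower and 3 higher, with a median of -0.085, beside 34.1% lower and 30.7% higher over all genes. MAP7D1, a microtubule protein that recruits kinesin-1, had a log2 fold change of -3.00, from 2076 ± 310.0 to 258 ± 33 normalised counts (SD, n = 3 each, adjusted p = 3.6e-10). FYCO1, an adaptor on late endosomes, and CLSTN1, a cargo receptor of the light chains, had log2 fold changes of -1.77 and -1.55. FEZ1, an adaptor of KIF5, rose by 2.00 and TRAK2, a mitochondrial adaptor, by 0.33. FEZ1 was low, at means of 15 normalised counts with DMSO and 64 with IPI-9119. TRAK1, also a mitochondrial adaptor, fell (-1.21, adjusted p = 7.2e-08, and -0.67 after the correction).

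Of 25 genes of the minus-end motor dynein and its cofactors, 10 were lower, 6 higher and 9 not past the test, with a median of -0.12. That is 64% called, close to the 62.8% of all genes. The heavy chain DYNC1H1 (36852 nt) had a log2 fold change of -1.29 (-0.36 after the correction), BICD2 one of -0.81 and DYNC1LI1 one of -0.60. The light chains DYNLL1, DYNLT1 and DYNLT3 rose by 0.49, 0.45 and 0.33, the last not called after the correction. Another light chain, DYNLL2, fell (log2 fold change -0.45, adjusted p = 3.8e-06, and -0.43 after the correction). DYNLRB1 did not pass (-0.079) but was called lower after the correction (-0.24, adjusted p = 0.000647). Subunits of intraflagellar transport, the cargo of kinesin-2 in cilia, were lower for 13 of 23, higher for 5 and not past for 5, with a median of -0.22, beside 31.4% lower and 31.3% higher over all genes. Without the correction, the largest falls were those of IFT140 (-1.14), IFT172 (-1.11) and TRAF3IP1 (-1.02), and the largest rises those of IFT25 (0.98), IFT46 (0.55) and IFT57 (0.47). With it, 11 were lower and 4 higher, beside 34.1% lower and 30.7% higher over all genes. Those falls were then -0.45, -0.82 and -1.20. Ahead of IFT140 were then also IFT74 (-0.63), TTC26 (-0.55), WDR19 (-0.55), IFT81 (-0.54), TTC30A (-0.48) and IFT88 (-0.46). The rises were then 0.83, 0.37 and 0.21, with IFT80 (0.25) ahead of IFT57. Among the tubulins, the track itself, 7 of 10 rose, 1 fell and 2 did not pass, with a median of 0.71. Over all genes 31.3% were higher and 31.4% lower without the correction. TUBA1B rose by 1.58, TUBB3 by 1.36 and TUBB6 by 1.32, while TUBB4A had a log2 fold change of -1.27. Tubulin genes are near copies of each other, so reads may be split between them in ways that the counting does not show.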

How the data were processed

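RNA was sequenced from polyA-selected libraries of C4-2 cells, 3 with IPI-9119 and 3 with DMSO. The deposited table holds a signal: the values show that the authors scaled the counts of each library by its size factor. GRCh38, DESeq2, featureCounts, Subread 1.5.2, STAR 2.5.2b and Trimmomatic 0.36 are named without role or order by the submitters' processing notes. Which annotation release the counting used, and whether it used strand, is not given in the sources used here. All values (100%) were whole multiples of 1 read within 0.01 read, so reads were recovered.

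Genes were tested with limma 3.58.1 under R 4.3.3 on log2(value + 1), two-sided, with moderation set to trend and robust, over the 14437 genes with a mean of at least 10. The quasi-likelihood test of edgeR 4.0.16 on those reads called 9081 genes and DESeq2 1.42.0 called 8460, against 9061 by limma. The fits were tested on simulated data. Between replicates, chi-square per degree of freedom ran from 2.29 to 9.56, above sampling noise, and none was merged. Positions and lengths (all exons of a gene merged) came from GENCODE 29 on GRCh38. Symbols came from a separate list of gene names, or from GENCODE 29 where that list had none. GC content was that of the longest transcript of a gene. The length and GC correction removed from each library a smooth trend of its deviations on both, for the 99.6% of tested genes with both values.

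The kinesins, their classes and the partner lists were chosen with earlier results of these data known, so no class was tested. Values per library are given for all mitotic members and, in each other class, for the 4 called members with the largest rise, the 4 with the largest fall and those whose call an alternative ended. In each partner list the 3 called genes with the largest rise and the 3 with the largest fall are named, except 1 cargo adaptor that is not reported here. TPX2, RACGAP1, PRC1 and other genes outside that rule were chosen after their values were seen. Alternatives were the replicate block, the length and GC correction, pseudocounts, filters, scalings, moderation, count tests, class borders and leaving out libraries. Protein sequences were not used here.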

Additional observations from a re-analysis of the deposited data

How the results depend on the processing

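Over 19 alternatives, 22 of the 30 called kinesins kept their direction and their call in each one that tested them. The mitotic class had 9 to 11 members called higher in all of them, and the transport class 7 to 11 called lower. The length and GC correction gave 7 transport kinesins lower, 1 light chain or binding gene higher and 3 lower, 2 ciliary or other kinesins lower, 3 dynein genes higher and 2 tubulins lower. Its medians were 1.77 (mitotic), -0.26 (light chains and binding), 1.74 (mitotic partners), -0.085 (cargo adaptors), 0.60 (tubulins) and -0.16 (intraflagellar transport). It turned the sign of KLC1 (0.29) and KIF22 (0.040). These medians and signs were the same with the replicate block added to the correction, which gave 8 transport kinesins lower. The cause of these shifts was not tested beyond the correction itself. The replicate block alone called 9596 genes, against 9061, and 11 mitotic kinesins higher and 11 transport kinesins lower. Same-numbered libraries did not deviate together throughout (correlations 0.141, 0.063 and 0.0044), so the numbers were not taken as pairs, and not every library correlated best with its own number. A mean of at least 50 gave medians of 2.13 (mitotic), 2.13 (partners), 0.14 (ciliary and other) and 1.02 (tubulins), with 1 partner and 0 tubulins lower, since fewer genes were tested. Pseudocount 8 gave a mitotic median of 1.83, as did counting KIF2A as mitotic. Counting the ciliary and other class as transport gave 3 transport kinesins higher. Quantile scaling gave medians of -0.65 (light chains and binding) and -0.17 (intraflagellar transport), and KIF12 at -0.038. Leaving out 1 library gave 1 to 2 transport kinesins higher (2 without IPI-9119 replicate 1) and 8 to 11 lower (8 without DMSO replicate 2), and 0 to 1 ciliary or other kinesins lower. The ciliary and other median then ran from -0.11 to 0.14 (-0.059 without DMSO replicate 2, -0.11 without IPI-9119 replicate 3), that of intraflagellar transport from -0.28 to -0.19, the mitotic one from 1.89 to 2.10 and the dynein one from -0.14 to -0.083, the check without 2 libraries included. Single genes that changed sign ranged from -0.17 to 0.31 (KIF12), from -0.069 to 0.021 (KIF2A) and from -0.0093 to 0.17 (KIF3B). KIF12 turned to -0.17 without DMSO replicate 2 and -0.15 without IPI-9119 replicate 3, and KIF3B to -0.0075, -0.0011 and -0.0093 without DMSO replicate 1, IPI-9119 replicate 2 or IPI-9119 replicate 3. Without both DMSO replicate 2 and IPI-9119 replicate 1, an alternative chosen after seeing the data, 2 transport kinesins were higher, the medians were 2.10 (mitotic), -0.42 (transport), -0.083 (dynein) and -0.28 (intraflagellar transport), and KIF2A was at 0.021. The cause of the other changes was not tested. KIF18B, KIF6 and KIF12 averaged under 30 normalised counts in each group, and the part of depth in their changes was not tested.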
